A study of Drosophila melanogaster with 18 samples.

Results

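The males compared here carried X chromosomes that had been passed from father to son for many generations (MLX, male-limited X evolution), and they were set against males of both treatments whose X had no such history. The members of the comparison were the 6 MLX arrays of 3 populations, out of 18 arrays of 9 populations in all, and they were chosen by the treatment named in each sample title. The other 12 arrays came from 3 Control and 3 CDX populations, with 6 arrays per treatment and 2 per population. Control males inherited the X from the mother in the usual way. CDX males had a Control father and a DX mother, whose pair of X chromosomes is joined at the centromere, so that they received the X from the father for a single generation and the Y from the mother. MLX males were likewise sons of DX mothers, with an X from an MLX father and a maternal Y. All populations derived from LHm, an outbred laboratory stock of *Drosophila melanogaster*. RNA was taken from the whole body of males at day 14 after egg laying, which is 4 days of adult life. As models the treatments have limits: the MLX populations received some males each generation from recombination boxes, in which the X also passed through females, and the methods describe pooled males per array whereas the labels number a single male.

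In flies the X normally spends more of its history in females than in males, and alleles that help one sex at a cost to the other can be kept on it. Confining the X to males removes selection in females, while the use of DX mothers also changes which parent transmits the X and the Y. CDX males share the paternal X and maternal Y of MLX males, but their X lacks the many generations, and Control males share neither. The paper states that the Y chromosomes of CDX males had been able to evolve in MLX populations. The comparison of MLX with the mean of Control and CDX, with each of these weighed equally, therefore asks which transcripts stood apart in the males with an evolved X from both kinds of males without it.

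Each value was the log2 expression of a probe set, a group of short probes for a transcript, and a difference of 1 is a doubling. The 18 arrays had medians between 6.96 and 7.08, and precision is limited by how many arrays there were. The male tissue markers were at high levels in every treatment: the mean of the testis list lay between 9.70 and 10.04 and that of the seminal fluid list between 11.41 and 11.85 over the arrays. Transcripts of yolk and eggshell, which whole males should lack, had an array mean of 6.11 to 6.91 in 6 arrays (2 of MLX, 3 of CDX and 1 of Control) and of 5.19 to 5.60 in the other 12. Signal at the 3' end of the Affymetrix control transcripts exceeded that at the 5' end, a measure of RNA integrity, by 1.37 ± 0.10 (SD, n = 6 arrays) in MLX and 1.48 ± 0.09 (n = 12 arrays) in the other males (difference -0.11, exact permutation p = 0.119 over 84 arrangements of populations, two-sided). The part of either measure in the differences below was not tested beyond the values given.

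No transcript passed the test after adjustment. Of 18769 probe sets, 0 (0%) had an adjusted p under 0.05 from limma for MLX minus the mean of Control and CDX, and the smallest adjusted p was 0.259. At an unadjusted p under 0.01 there were 135 (0.719%), of which 68 were higher and 67 lower in MLX males, and at an unadjusted p under 0.05 there were 668. Both counts were smaller shares than 0.01 and 0.05, which would pass on average with no difference at all. The 3 MLX population means all lay outside the 6 Control and CDX population means at 303 probe sets (1.61%), with 152 above and 151 below. With no difference, a share of 0.0119 would on average lie above and as many below, more than were seen. Both conditions, an unadjusted p under 0.01 and means outside the other 6, held at 73 probe sets (0.389%). Of these, 54 were matched to exactly 1 gene, and the genes described next were taken from the 54 by the size of the difference. Most differences were small: the median absolute difference over all probe sets was 0.04 with a median standard error of 0.06, only 25 probe sets differed by 0.5 or more and 4 by 1 or more. At the level of single arrays, all 6 MLX arrays lay outside the other 12 at 2 probe sets (0.0107%), those of *CG3603* and *egh*, both X-linked and both higher in MLX.

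The X-linked genes that met both conditions had small differences. *CG3603*, a gene with no role given here, had the largest of these. Its log2 expression ran from 9.24 to 9.62 (median 9.46) over the 6 MLX arrays, from 8.99 to 9.24 (median 9.08) over the 6 Control arrays and from 8.71 to 9.17 (median 9.01) over the 6 CDX arrays. The population means were 9.51, 9.53 and 9.37 in MLX, 9.11, 9.04 and 9.11 in Control and 8.95, 9.06 and 8.90 in CDX, so that the lowest MLX array, 3-2, only just exceeded the highest Control array, 1-1. The difference was 0.44 (standard error 0.08, unadjusted p = 1.55e-05 and adjusted p = 0.259 from limma), or 0.38 against Control and 0.50 against CDX. *egh*, which encodes a mannosyltransferase of glycosphingolipid synthesis, ran from 10.19 to 10.30 (median 10.21) over the 6 MLX arrays and from 10.05 to 10.19 (median 10.11) over the other 12. Its highest CDX array, 3-1, almost reached the lowest MLX array. The difference of 0.12 (standard error 0.04, unadjusted p = 0.00281 and adjusted p = 1.00 from limma) was small but close to that of the second probe set of the gene, 0.12 with an unadjusted p of 0.00839.

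*eas* encodes ethanolamine kinase, an enzyme of membrane phospholipid synthesis whose mutants are prone to seizures. Its log2 expression ran from 11.49 to 11.57 (median 11.51) over the 6 MLX arrays and from 11.21 to 11.50 (median 11.35) over the other 12, and 5 of 6 MLX arrays exceeded all others. The MLX values had a narrow spread (11.52 ± 0.03, SD, n = 6) beside those of Control (11.33 ± 0.11) and CDX (11.36 ± 0.10), and the difference was 0.17 (standard error 0.05, unadjusted p = 0.00507 from limma). The other X-linked genes with higher MLX population means were *CG15765* at 0.24 ± 0.06 (difference ± standard error), *CG15894* at 0.20 ± 0.07 and *CG33181* at 0.18 ± 0.06. *CG15894* met this condition only by a near tie, with MLX population 2 at 4.89148 and Control population 2 at 4.89147. In *CG15765* the CDX males stood below Control males by 0.19 (unadjusted p = 0.0171), so that MLX exceeded Control by 0.14 and CDX by 0.34. The second probe sets of *CG15765* and *CG15894* differed by 0.04 and -0.05, and that of *CG33181* by 0.12.

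On the lower side the X-linked genes included a pair of receptors and a catabolic enzyme. *Gr9a*, a gustatory receptor gene, ran from 3.32 to 3.71 (median 3.41) over the 6 MLX arrays and from 3.56 to 3.88 (median 3.67) over the other 12, near the bottom of the measured scale, and 5 MLX arrays lay below all others (difference -0.22, standard error 0.07, unadjusted p = 0.00434 from limma). *CCKLR-17D3*, which encodes a receptor of the neuropeptide drosulfakinin, had population means of 5.30, 5.37 and 5.20 in MLX, 5.43, 5.46 and 5.43 in Control and 5.39, 5.59 and 5.49 in CDX. Its difference was -0.17 (standard error 0.06, unadjusted p = 0.00542 from limma). *Bcat*, the branched-chain amino acid aminotransferase, was abundant and ran from 10.71 to 10.95 (median 10.83) over the 6 MLX arrays and from 10.87 to 11.12 (median 10.95) over the other 12, a difference of -0.16 (standard error 0.05, unadjusted p = 0.00638 from limma). *CG3706* stood lower by a similar amount against each treatment (-0.20 against Control and -0.20 against CDX), with 5 MLX arrays below the other 12. *CG32801* differed by -0.24 ± 0.08 and *CG43155* by -0.34 ± 0.11, but a second probe set of *CG43155* differed by 0.03. All 12 X-linked genes had an adjusted p of 1.00 from limma except *CG3603* at 0.259.

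**Figure D1:**
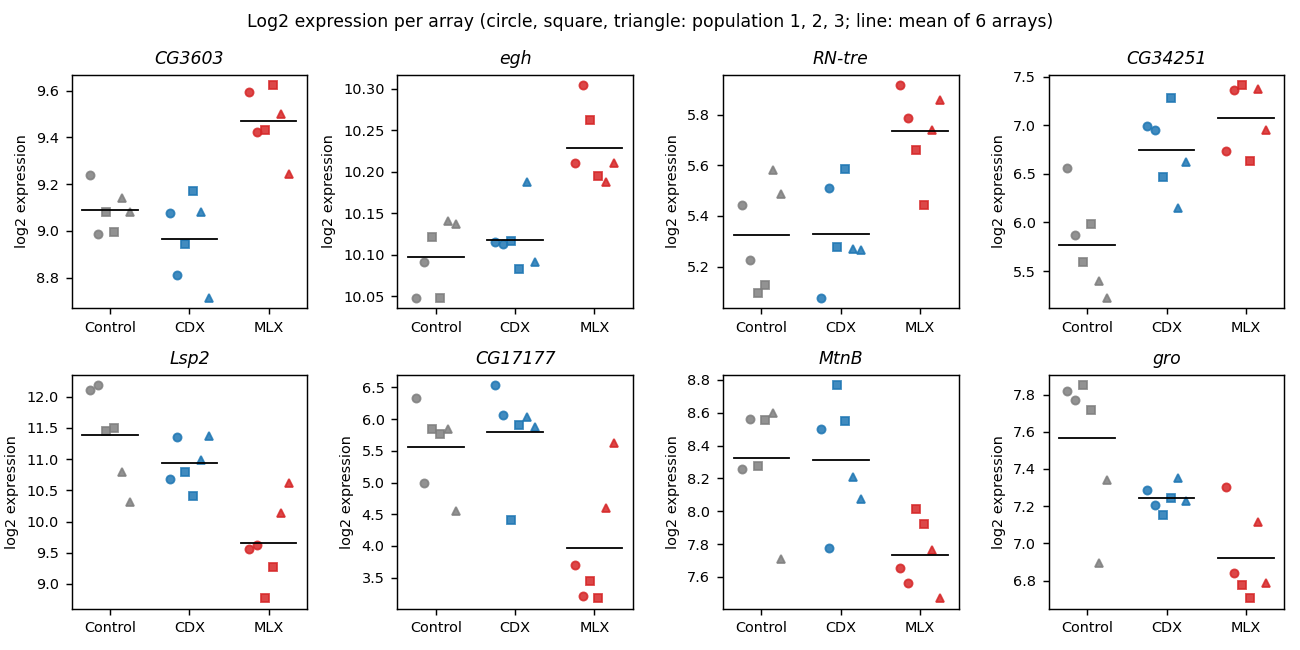
Log2 expression (y axis) of 8 genes on each of the 18 arrays by treatment, with circles, squares and triangles for populations 1, 2 and 3 and a line at the mean of 6 arrays. *CG3603* and *egh* show no overlap of MLX arrays with the other 12, whereas in *CG17177* and *gro* 4 of the 6 MLX arrays lie below all others.

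Among the autosomal genes that met both conditions on the higher side, a pair of close neighbours on chromosome arm 3L had the largest differences. The log2 expression of *CG34251* ran from 6.63 to 7.41 (median 7.16) over the 6 MLX arrays, from 5.22 to 6.57 (median 5.74) over the 6 Control arrays and from 6.15 to 7.28 (median 6.79) over the 6 CDX arrays. Control males were low and CDX males lay between, close to MLX males. The difference was 0.82 (standard error 0.21, unadjusted p = 0.000787 and adjusted p = 0.961 from limma), made up of 1.31 against Control and 0.34 against CDX. The difference from CDX had an unadjusted p of 0.175 from limma, while CDX exceeded Control by 0.97 (unadjusted p = 0.000637). *CG43085*, which is separated from *CG34251* by 5 annotated genes, had population means of 6.64, 6.48 and 6.72 in MLX, 6.29, 5.64 and 5.35 in Control and 6.44, 6.12 and 6.21 in CDX, a difference of 0.60 (standard error 0.17, unadjusted p = 0.00204 from limma). This difference was 0.85 against Control and 0.36 against CDX, the latter with an unadjusted p of 0.0849 from limma. The measured genes between this pair were *Krn* at 0.05, *CG7484* at -0.06 and *Crtc* at 0.09, with unadjusted p of 0.289, 0.151 and 0.125.

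*RN-tre* and *Ntf-2r* differed about equally from both treatments. *RN-tre* encodes a GTPase-activating protein for Rab GTPases of membrane traffic, and its probe set ran from 5.44 to 5.92 (median 5.76) over the 6 MLX arrays and from 5.08 to 5.59 (median 5.27) over the other 12. All but 1 of the MLX arrays exceeded every other array, and the difference was 0.41 (standard error 0.09, unadjusted p = 0.000348 and adjusted p = 0.817 from limma), or 0.41 against Control and 0.40 against CDX. The other 3 probe sets of *RN-tre* differed by 0.00 to 0.14. *Ntf-2r* is a retrogene copy of the nuclear transport factor *Ntf-2* and is known for expression in testis, and its shared sequence with the parent gene leaves its probe signal uncertain. Its population means were 8.11, 8.21 and 8.32 in MLX, 7.84, 8.06 and 7.64 in Control and 7.77, 7.99 and 7.66 in CDX (difference 0.39, standard error 0.09, unadjusted p = 0.000579 from limma). *CG34171*, 6 annotated genes away on 2L, differed by 0.29 ± 0.08, while the measured genes between them, *RpS26*, *ncm* and *bsf*, differed by -0.01, 0.10 and -0.01.

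The transcript pncr003:2L encodes the sarcolamban peptides, small regulators of the calcium pump SERCA in fly muscle. It ran from 9.22 to 9.50 (median 9.39) over the 6 MLX arrays and from 8.75 to 9.34 (median 8.99) over the other 12, with 4 MLX arrays above all others and a difference of 0.32 (standard error 0.09, unadjusted p = 0.00175 from limma). *SERCA* itself, at a mean of 13.96 ± 0.05 in MLX males (SD, n = 6), differed by 0.03 ± 0.04. *Alp9*, an alkaline phosphatase gene, ran from 10.21 to 10.57 (median 10.41) over the 6 MLX arrays and from 9.77 to 10.35 (median 10.14) over the other 12 and differed by 0.30 (standard error 0.10, unadjusted p = 0.00678 from limma). *CG42369*, the most abundant of this group, had MLX population means of 11.52, 11.55 and 11.52 and differed by 0.26 ± 0.08. CDX males also exceeded Control males at this gene, by 0.21 (unadjusted p = 0.0271). *CG5693*, *CG10341* and *CG8925* were higher by 0.31 ± 0.11, 0.27 ± 0.07 and 0.24 ± 0.06.

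On the lower side *CG17177* and *Lsp2* differed by more than 1 on the log2 scale. *Lsp2* encodes larval serum protein 2, a hexameric storage protein that fat body cells release into the haemolymph. Its log2 expression ran from 8.77 to 10.62 (median 9.59) over the 6 MLX arrays, from 10.31 to 12.18 (median 11.47) over the 6 Control arrays and from 10.41 to 11.37 (median 10.88) over the 6 CDX arrays. Every MLX population mean (9.59, 9.02 and 10.38) was below the lowest other, 10.56 in Control population 3, although array 3-2 of MLX, at 10.62, lay within the range of Control and CDX arrays. The difference of -1.50 (standard error 0.28, unadjusted p = 2.76e-05 and adjusted p = 0.259 from limma) corresponds to a 2.82-fold lower level, and it was -1.73 against Control and -1.27 against CDX. Without MLX population 3 its adjusted p was 0.0249 at a difference of -1.85, and without Control population 3 it was 0.0154 at -1.71. These were the highest MLX population and the lowest of the other 6, so that leaving out either widened the gap. No more than these 2 of 24 alternatives passed the adjusted threshold. Other abundant fat body products had small differences: *apolpp*, the precursor of the lipid carrier lipophorin, differed by -0.02 ± 0.04, *Idgf4* by 0.02 ± 0.06 and *smp-30* by 0.14 ± 0.13, or -0.01 ± 0.14 at its second probe set.

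*CG17177*, also on 3L, had the largest difference of any named gene. Its log2 expression ran from 3.18 to 5.62 (median 3.57) over the 6 MLX arrays, from 4.56 to 6.34 (median 5.80) over the 6 Control arrays and from 4.40 to 6.53 (median 5.96) over the 6 CDX arrays. The 4 arrays of MLX populations 1 and 2 were between 3.18 and 3.70, below every other array, but those of MLX population 3, at 4.61 and 5.62, lay within the range of Control and CDX. The difference was -1.72 (standard error 0.38, unadjusted p = 0.000220 and adjusted p = 0.652 from limma), and without MLX population 3 it was -2.29 with an adjusted p of 0.0249. Leaving out this highest MLX population widened the gap, and only 1 of 23 alternatives passed the adjusted threshold. The 4 arrays of MLX populations 1 and 2 were at a level near the bottom of the measured scale, like that of *Gr9a*. The size of the difference is therefore uncertain and no fold is given.

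Metallothioneins are small proteins that bind copper and zinc, and *MtnB* and *MtnD* lie in a cluster on 3R. *MtnB* ran from 7.47 to 8.02 (median 7.71) over the 6 MLX arrays and from 7.71 to 8.77 (median 8.39) over the other 12. Its population means in MLX (7.61, 7.97 and 7.62) were all below those in Control (8.41, 8.42 and 8.16) and CDX (8.14, 8.66 and 8.14), and the difference was -0.59 (standard error 0.16, unadjusted p = 0.00125 and adjusted p = 1.00 from limma). *MtnD* had a like difference of -0.44 (standard error 0.15, unadjusted p = 0.00885 from limma), but MLX population 2, at 10.28, lay within the range of the others. *MtnA*, by far the most abundant of the family, differed by 0.04 ± 0.04.

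*Jon44E*, a serine protease of the gut, had population means of 9.50, 9.97 and 9.87 in MLX, 10.30, 10.92 and 10.45 in Control and 10.10, 10.45 and 10.60 in CDX, and its arrays overlapped widely between treatments (difference -0.69, standard error 0.24, unadjusted p = 0.00936 from limma). *gro* encodes Groucho, a corepressor of transcription. Its log2 expression ran from 6.71 to 7.30 (median 6.81) over the 6 MLX arrays, from 6.89 to 7.85 (median 7.74) over the 6 Control arrays and from 7.15 to 7.35 (median 7.24) over the 6 CDX arrays. CDX males lay between the others and Control population 3, at 7.12, was far below the other Control populations, at 7.79 and 7.78. The difference was -0.48 (standard error 0.12, unadjusted p = 0.000975 and adjusted p = 0.961 from limma), and without Control population 3 it was -0.60 with an adjusted p of 0.0154. Leaving out this lowest Control population widened the gap, and only 1 of 24 alternatives passed the adjusted threshold. *Sid*, a stress-induced DNase gene, had a narrow range of MLX population means (6.85, 6.90 and 6.94) below those of Control (7.32, 7.30 and 7.28) and CDX (7.36, 7.38 and 7.19), at a difference of -0.41 (standard error 0.13, unadjusted p = 0.00382 from limma).

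*CG1773* was lower, with a difference of -0.36 ± 0.08, with 5 of 6 MLX arrays below all 12 others. *CG7560*, which encodes methylenetetrahydrofolate reductase of the folate cycle, differed by -0.30 ± 0.10, and *Cyp309a1*, a cytochrome P450 gene, by -0.29 ± 0.09. In both, no MLX array lay below all 12 others, since single Control arrays were lower still, but the MLX arrays were tightly grouped (8.31 ± 0.06 and 8.46 ± 0.06, SD, n = 6). *Ttc26*, a gene of intraflagellar transport in cilia, differed by -0.27 ± 0.09, *CG33679* by -0.26 ± 0.08 and *CG9270* by -0.26 ± 0.07, or -0.07 at its second probe set. The 19 other genes that met both conditions, 6 higher and 13 lower, differed by 0.12 to 0.23.

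**Figure D2:**
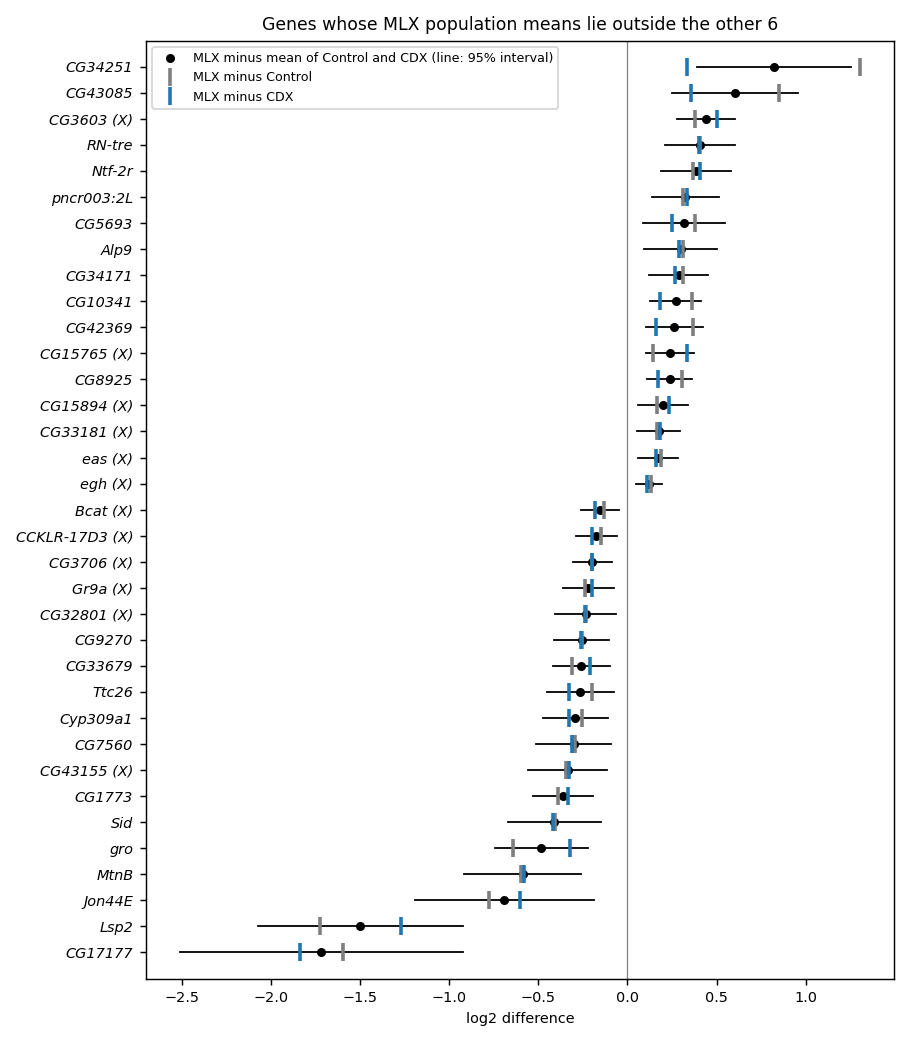
Log2 difference (x axis) of MLX males from the mean of Control and CDX for the 35 named genes, with a 95% interval from limma that is not adjusted for the choice of genes, and the differences from Control (grey) and CDX (blue). *CG17177* and *Lsp2* lie beyond -1, 4 genes lie between 0.5 and 1 in size and 29 below 0.5.

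The comparisons of MLX with Control and with CDX share the MLX arrays, and the values are therefore given side by side. Of the 13 genes named for size on the higher side, 8 had an unadjusted p under 0.05 in both, as did 12 of the 13 on the lower side. Of the 12 X-linked genes the number was 11, *CG15765* being the exception through its difference from Control. Over all probe sets, 133 of 18769 had an unadjusted p under 0.05 in both comparisons in the same direction. The named genes were chosen on these same values, so their high counts follow in large part from the choice. CDX and Control males differed from each other at an unadjusted p under 0.05 at 560 of 18769 probe sets (2.98%) and at 6 of the 35 named genes. These 6 were *CG34251*, *CG43085*, *CG10341*, *CG42369* and *gro*, in which CDX lay between Control and MLX, and *CG15765*, in which CDX was lowest. The named genes were picked for MLX means beyond both treatments, which does not fix the difference between CDX and Control. They were also picked for an unadjusted p under 0.01, which favours genes with a small spread within treatments. The same spread enters the test of CDX against Control, so the count of 6 is not free of the choice.

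**Figure D3:**
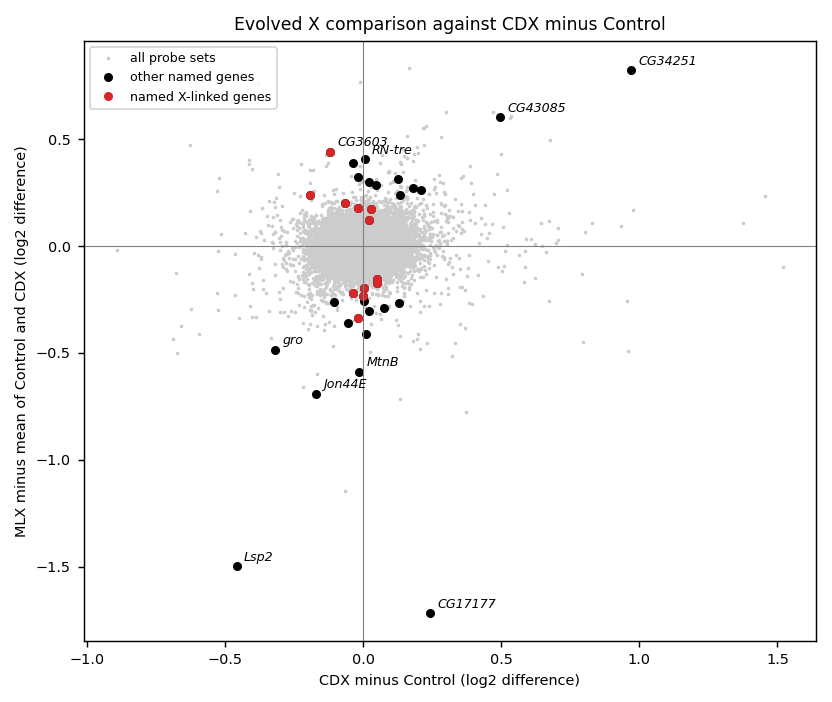
Each probe set by its log2 difference between CDX and Control (x axis) and between MLX and the mean of both (y axis), with the 35 named genes in black and, where X-linked, in red. *CG34251* lies far out on both axes, at 0.97 and 0.82, whereas *CG17177*, *Lsp2* and *MtnB* lie far from 0 on the y axis.

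No shift of the X chromosome as a whole was detected. The median deviation of 2188 X-linked probe sets minus that of autosomal probe sets was 0.0098, -0.0091 and -0.0067 in MLX populations 1, 2 and 3, between -0.0027 and 0.0045 in the Control populations and between -0.00087 and 0.0026 in the CDX populations. The MLX populations thus lay on both sides of the other 6, outside their range. The difference of MLX from the others was -0.0031 (exact permutation p = 0.452 over 84 arrangements of populations, two-sided, the smallest possible p being 0.0119). Shifts of single arms relative to all placed probe sets ran from -0.0031 for chromosome 4 to 0.0021 for 2R, with an adjusted p of 0.914 or more for each of 6 arms from the same exact test. Without MLX population 1, the only MLX population above the others, the X difference was -0.0090 (exact permutation p = 0.0357, the smallest possible with 2 against 6 populations). Without MLX population 2 it was 0.00044 (exact permutation p = 0.964).

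The share of single probe sets that stood apart was also given by arm. On the X, 41 of 2188 probe sets (1.87%) had MLX population means outside the other 6, 20 above and 21 below. The shares on the large autosomal arms were 1.71% on 2L, 1.28% on 2R, 1.50% on 3L and 1.38% on 3R. With an unadjusted p under 0.01 as well, the share was 0.686% on the X (15 probe sets) and 0.487%, 0.220%, 0.375% and 0.264% on these arms. On the small chromosome 4 it was 1.22%, or 1 of 82 probe sets. By an unadjusted p under 0.01 alone the X was not highest. The share was then 1.01% on the X, 1.06% on 2L, 0.659% on 2R, 0.826% on 3L and 0.558% on 3R. Of the 53 probe sets that met both conditions, matched 1 gene and were placed on a chromosome, 28.3% were X-linked, beside 16.2% of all placed probe sets. The X-linked ones went both ways, with 6 higher and 9 lower, and no test of these shares was made.

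**Figure D4:**
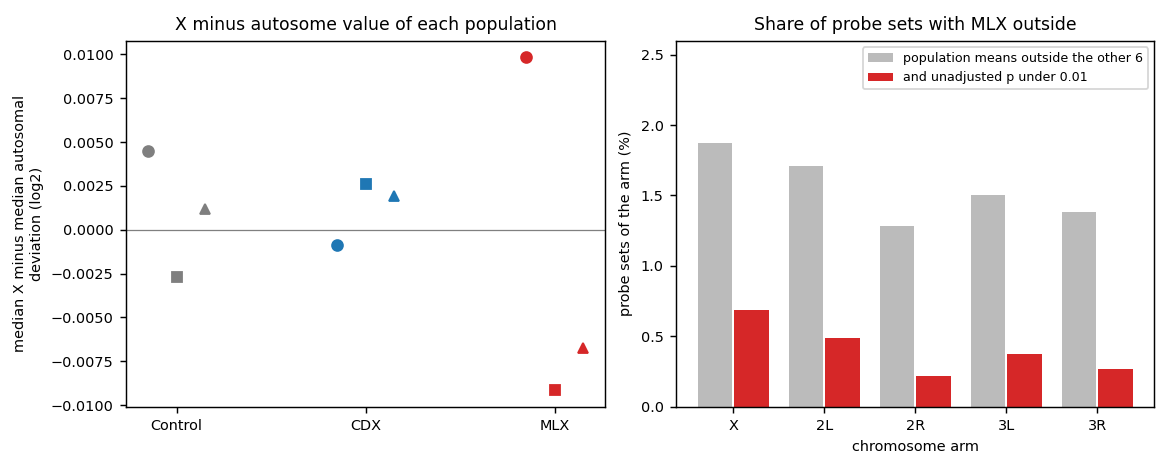
Left, the median X-linked minus the median autosomal deviation of log2 expression (y axis) for each of the 9 populations (circles 1, squares 2, triangles 3); right, the share of probe sets of each large arm (y axis, %) whose MLX population means lie outside the other 6 (grey) and also have an unadjusted p under 0.01 (red). The MLX populations spread from -0.0091 to 0.0098, and the X has shares of 1.87% and 0.686%.

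Gene lists were read against all 11982 genes at 1 probe set each. Of these, 6356 (53.0%) had a higher mean in MLX, with a median difference of 0.0042, and 215 (1.79%) were higher and 209 (1.74%) lower at an unadjusted p under 0.05. Of the same 11982 genes, 4342 had a higher mean in MLX than in both treatments and 3689 a lower mean than in both. No member of any list passed after adjustment.

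Muscle genes stood slightly higher in MLX males. Of 31 measured genes of muscle and sarcomere, 27 had a higher mean in MLX and 22 were higher than in both treatments, with a median difference of 0.059, and 1 had an unadjusted p under 0.05. The mean deviation of the list was 0.09, 0.05 and 0.02 in the MLX populations, 0.02, -0.02 and -0.06 in Control and -0.07, 0.00 and -0.03 in CDX, so that MLX population 3 overlapped with the others. The 1 gene at an unadjusted p under 0.05 was *up*, which encodes troponin T, and it ran from 10.34 to 10.68 (median 10.49) over the 6 MLX arrays and from 10.15 to 10.54 (median 10.35) over the other 12 (difference 0.16, standard error 0.06, unadjusted p = 0.0207 from limma, chosen after its values were seen). In *Tm2* (tropomyosin), *Actn* (alpha-actinin) and *Zasp52* (a protein of the Z disc), also chosen in this way, the 3 MLX population means were above the other 6. Their differences were 0.08 ± 0.04, 0.08 ± 0.04 and 0.10 ± 0.05, with unadjusted p of 0.102, 0.0903 and 0.0571 from limma. *Tm2* met this condition only by a near tie, with the lowest MLX population at 11.5853 and the highest other at 11.5845. The largest difference was in *TpnC4*, a troponin C of the flight muscle, at 0.55 (standard error 0.27, unadjusted p = 0.0539 from limma), with a wide range of values (from 9.54 to 10.60 (median 10.46) in MLX and from 8.48 to 10.61 (median 9.88) in the others). *fln*, which encodes flightin of the thick filament, differed by 0.41 ± 0.27, and the abundant *Mf* (myofilin) by 0.01 ± 0.04 at one probe set and 0.17 ± 0.09 at the other. The list's median stayed between 0.047 and 0.073 when each population was left out.

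Genes of the citrate cycle and respiratory chain leaned the same way, 39 of 41 having a higher mean in MLX, with a median of 0.053 and none at an unadjusted p under 0.05. *COX5A*, a subunit of cytochrome c oxidase, had population means of 13.56, 13.50 and 13.38 in MLX, 13.42, 13.39 and 13.29 in Control and 13.29, 13.50 and 13.41 in CDX. The populations overlapped, as they did for *ATPsynbeta* of ATP synthase (difference 0.10 ± 0.07, and -0.01 ± 0.07 at a second probe set), and the abundant *sesB* and *blw* differed by 0.02 ± 0.05 and 0.02 ± 0.04. When the fit also took account of RNA integrity, by the excess of 3' signal on each array, the median of this list was -0.0024, whereas that of the muscle list was 0.070. Among 15 genes of glycolysis and related steps, *Gpdh1*, the cytosolic glycerol-3-phosphate dehydrogenase, was lower, with a difference of -0.16 (standard error 0.07, unadjusted p = 0.0323 from limma), but its other 3 probe sets differed by -0.03, -0.06 and -0.05 with unadjusted p of 0.713, 0.202 and 0.412. *Pepck1* differed by -0.18 ± 0.10, and 9 of the 15 had a higher mean.

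**Figure D5:**
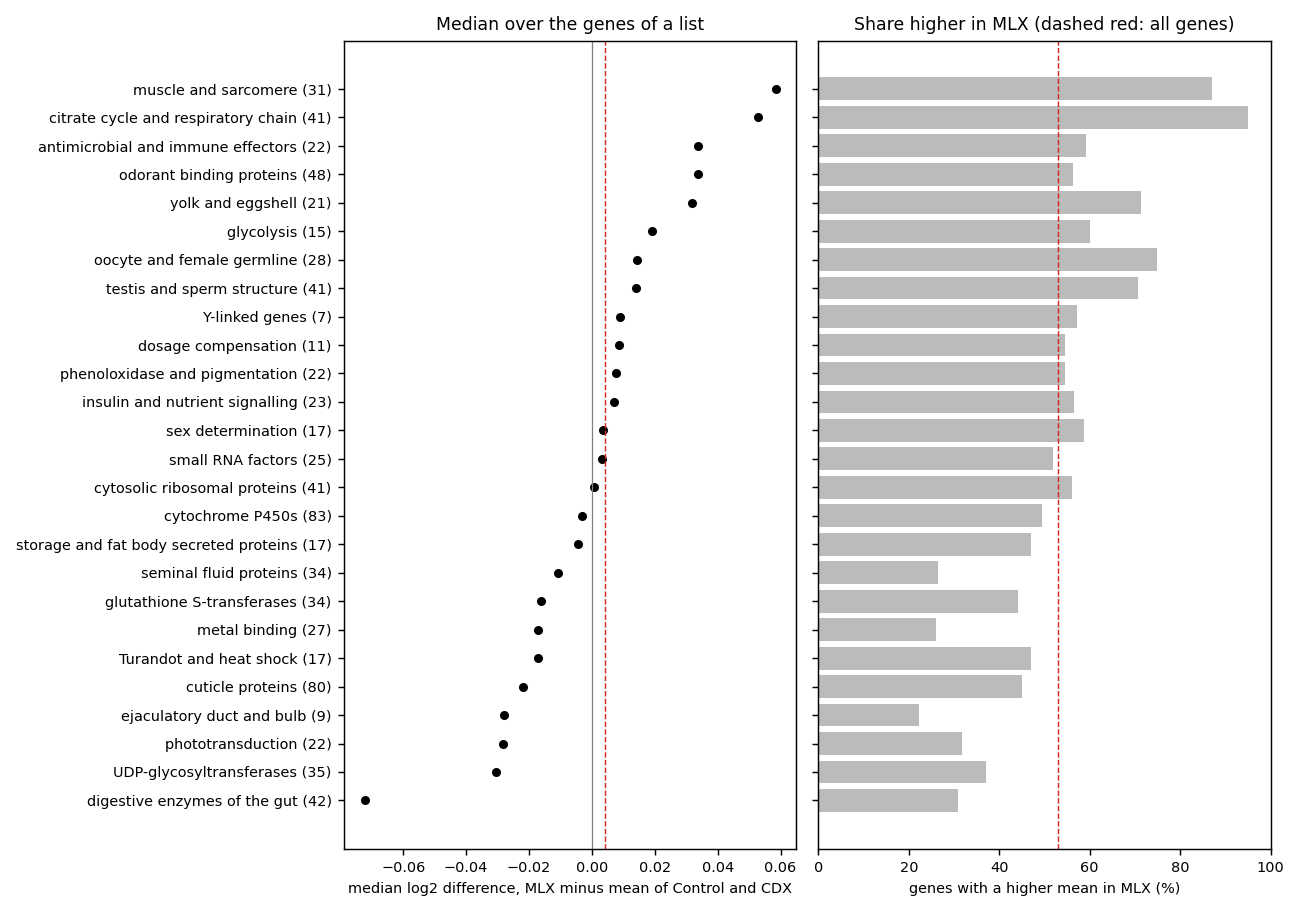
Median log2 difference of MLX males from the mean of Control and CDX (left, x axis) and share of genes with a higher mean in MLX (right, x axis, %) for 26 gene lists, with the number of measured genes in brackets and all genes as a dashed red line. The muscle list has the highest median, 0.059, and the list of gut enzymes the lowest, -0.072.

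Genes of digestion and metal binding leaned lower. Of 42 measured digestive enzymes of the gut, 29 had a lower mean in MLX and 21 were lower than in both treatments, with a median of -0.072, and 1, *Jon44E*, had an unadjusted p under 0.05. *Jon99Fi* differed by -0.29 ± 0.28, but the abundant proteases *Jon65Aiv* and *betaTry* by -0.01 ± 0.05 and 0.03 ± 0.05. The list's population means spanned -0.19 to 0.10 in MLX and -0.15 to 0.13 in the others. Of 27 metal-binding genes, 20 had a lower mean in MLX and 10 were lower than in both treatments, with a median of -0.017. *MtnB* and *MtnD* were lower at an unadjusted p under 0.05. The zinc transporter gene *Zip42C.2* was higher by 0.13 ± 0.05 (named after its values were seen), and *Fer1HCH*, the ferritin heavy chain, differed by 0.01 ± 0.04.

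Signals of energy balance included a pair of fat mobilisation genes. Of 23 genes of insulin and nutrient signalling, 13 had a higher and 10 a lower mean in MLX (median 0.007), and 2 were lower at an unadjusted p under 0.05. *AkhR*, the receptor of adipokinetic hormone, which releases stored fat and sugar, ran from 9.01 to 9.54 (median 9.36) over the 6 MLX arrays and from 9.29 to 9.95 (median 9.51) over the other 12 (difference -0.23, standard error 0.11, unadjusted p = 0.0404 from limma, and a second probe set at -0.24 with an unadjusted p of 0.127). *bmm*, the lipase brummer of fat droplets, had population means of 10.27, 10.22 and 10.32 in MLX, 10.44, 10.62 and 10.24 in Control and 10.55, 10.42 and 10.31 in CDX (difference -0.16, standard error 0.07, unadjusted p = 0.0445 from limma), and the arrays overlapped. *chico*, the insulin receptor substrate, had MLX population means narrowly above the other 6, the lowest at 8.72 and the highest other at 8.71. Its difference was 0.08 ± 0.05 (unadjusted p = 0.106 from limma, named after its values were seen), and *tobi*, a glucosidase gene, differed by -0.04 ± 0.20.

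Genes of the male reproductive tract differed little. Of 34 seminal fluid proteins, 25 had a lower mean in MLX with a median of -0.011. Lower than in both treatments were 12, a share near that over all genes. The median turned to 0.047 with the excess of 3' signal in the fit, and ran from -0.076 to 0.022 when each population was left out. *Sfp38D* was lower, with a difference of -0.33 (standard error 0.13, unadjusted p = 0.0181 from limma), mostly against Control (-0.53 against Control and -0.13 against CDX), and *Acp53C14b*, the most abundant, differed by -0.01 ± 0.05. Of 41 genes of testis and sperm structure, 29 had a higher mean, with a median of 0.014 and none at an unadjusted p under 0.05. The array means of the testis list ran from 9.76 to 10.04 in MLX and from 9.70 to 9.98 in the others. In whole males, more cells of a tissue and more RNA per cell cannot be told apart.

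Among small RNA factors, *aub* had the smallest p. Aubergine is a Piwi protein which in testis helps to silence the X-linked *Stellate* repeats through small RNAs from the Y-linked *Suppressor of Stellate*. The probe set of *aub* ran from 6.06 to 6.44 (median 6.23) over the 6 MLX arrays and from 5.80 to 6.24 (median 5.99) over the other 12, with population means of 6.14, 6.36 and 6.18 in MLX, 5.92, 5.95 and 5.90 in Control and 6.17, 6.01 and 6.01 in CDX. MLX population 1 did not exceed CDX population 1, and the difference was 0.24 (standard error 0.06, unadjusted p = 0.00105 and adjusted p = 0.961 from limma). *piwi* differed by 0.13 ± 0.10, and of 25 factors 13 had a higher mean, with a median of 0.003. Of 11 dosage compensation genes, 6 had a higher mean and none had an unadjusted p under 0.05. The MSL complex, which raises transcription of the male X, was represented by *msl-2* at -0.07 ± 0.06 and *msl-3* at 0.07 ± 0.04 (-0.05 at its second probe set), and *Sxl*, the switch gene of sex determination, differed by -0.05 ± 0.06 (-0.06 and 0.07 at its other probe sets). Of 7 measured Y-linked genes, 4 had a higher mean, with a median of 0.009.

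Sensory and detoxification genes went both ways. *Obp56h*, an odorant binding protein gene, ran from 7.16 to 8.51 (median 8.15) over the 6 MLX arrays and from 6.69 to 8.19 (median 7.50) over the other 12, and 3 of 6 MLX arrays exceeded all others. The difference was 0.63 (standard error 0.21, unadjusted p = 0.00742 from limma), or 0.86 against Control and 0.39 against CDX, and *Obp49a* differed by 0.19 ± 0.09, while of 48 odorant binding proteins 27 had a higher mean. Of 22 phototransduction genes, 15 had a lower mean (median -0.028), yet the X-linked *rdgA* and *rdgB*, which encode a diacylglycerol kinase and a phosphatidylinositol transfer protein of photoreceptors, differed by 0.12 ± 0.06 and 0.12 ± 0.05. The second probe set of *rdgB* differed by 0.12 ± 0.05, but the other 3 of *rdgA* by 0.06, -0.01 and 0.07, and the one given first had an unadjusted p of 0.0580. *inaC*, the eye protein kinase C, was lower, with a difference of -0.16 ± 0.07, and these 3 genes were named after their values were seen.

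Of 83 cytochrome P450 genes, 41 had a higher and 42 a lower mean, with 6 higher and 6 lower at an unadjusted p under 0.05. *Cyp4d21*, a male-biased P450 with a known role in courtship, ran from 10.63 to 11.11 (median 10.93) over the 6 MLX arrays and from 10.14 to 11.09 (median 10.49) over the other 12, a difference of 0.38 (standard error 0.14, unadjusted p = 0.0128 from limma). *Cyp6a14*, named after its values were seen, had a difference of -0.21 ± 0.07 with 4 MLX arrays below all others, and the very abundant *Cyp4g1* differed by 0.00 ± 0.03. Of 22 genes of phenoloxidase and pigmentation, *t* (tan) was lower, with a difference of -0.15 (standard error 0.05, unadjusted p = 0.0146 from limma), mostly against Control (-0.23 against Control and -0.06 against CDX), and *PPO1*, a prophenoloxidase gene, stood at a difference of 0.42 ± 0.21 with overlapping populations. Of 80 cuticle protein genes 44 had a lower mean, among them *Cpr97Ea* at -0.16 ± 0.05 (named after its values were seen).

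The remaining lists held few genes at an unadjusted p under 0.05. Antimicrobial and immune effectors (13 of 22 higher), glutathione S-transferases (15 of 34), Turandot and heat shock genes (8 of 17) and cytosolic ribosomal proteins (23 of 41) had medians of 0.034, -0.016, -0.017 and 0.001. *Drs*, the antifungal peptide drosomycin, ran from 9.33 to 10.76 (median 9.60) over the 6 MLX arrays and from 9.39 to 10.88 (median 10.21) over the other 12, and *TotB*, a stress peptide gene near the bottom of the scale, differed by -0.12 ± 0.05. UDP-glycosyltransferases (13 of 35 higher), sex determination genes (10 of 17), storage and fat body proteins (8 of 17) and ejaculatory duct and bulb genes (2 of 9) had medians of -0.031, 0.004, -0.004 and -0.028. Of the female lists, 15 of 21 yolk and eggshell genes and 21 of 28 germline genes had a higher mean in MLX, but only 1 and 7 were higher than in both treatments, with medians of 0.032 and 0.014.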

How the data were processed

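RNA of 18 samples of whole males was measured on Affymetrix Drosophila Genome 2.0 arrays. The deposited values are log2 expression from RMA in affy, run by the authors, which corrects background, normalizes by quantiles and summarizes probes. Its version is not given in the sources read. RMA fits all arrays together, and small differences of weak transcripts can be compressed by it. All 18952 probe sets were read as deposited, and 183 Affymetrix controls were left out. Of the other 18769, the platform annotation matched 13647 to 1 gene, 402 to several and 4720 to none, and 13543 were placed on a chromosome by RefSeq (Release 6 plus ISO1 MT). The number of arrays limits the precision.

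Treatment was fitted in limma 3.58.1 (R 4.3.3) and each of the 9 populations was a random block (duplicateCorrelation, correlation 0.192), followed by eBayes. The contrast was MLX minus the mean of Control and CDX, two-sided, with Benjamini-Hochberg adjustment at 0.05. On simulated data the fit was tested before use. Arms were compared by exact permutation over the 9 populations.

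Genes were named when the 3 MLX population means lay outside the other 6, at an adjusted p under 0.05 or, as fewer than 20 passed, an unadjusted p under 0.01: the 13 with the largest difference on each side and up to 6 X-linked genes on each side. From each of 26 lists up to 4 genes were named, by mean level and by size of difference. Members and lists were chosen with earlier results of these data known, so no list was tested. Alternatives were other blocks and moderation, normalization, filters, covariates and each population left out. Figures used Python 3.11.15 and matplotlib 3.10.9. Nothing says that the 2 arrays of a population came from separate cultures, so their spread may be partly technical.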

Additional observations from a re-analysis of the deposited data

Results flagged for a closer look

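For each of 84 genes described, the most extreme of the 6 arrays of a treatment was set apart when its gap to the nearest array exceeded 0.625 of the whole range of that treatment, and this held in 11 of 252 groups. Chance gives about 1 in 20. Among the X-linked genes, *egh* stood at 10.19 in CDX array 3-1, where the other CDX arrays ran from 10.08 to 10.12, and this array nearly closed the gap to MLX. *CG15765* stood at 6.62 in Control array 3-1 (others 6.41 to 6.47) and *CG15894* at 4.49 in CDX array 3-1 (others 4.73 to 4.84). *CG43155* was far below the rest in Control array 3-2, at 5.30 (others 5.65 to 5.75), and in MLX array 3-1, at 4.82 (others 5.30 to 5.48). *CG17177* was at 4.40 in CDX array 2-1, where the other CDX arrays ran from 5.87 to 6.53. *CG8925* was at 6.50 in Control array 3-2 (others 6.74 to 6.87).

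Among genes of the lists, *TpnC4* was low at 8.48 in Control array 3-2 (others 9.59 to 10.19) and at 9.54 in MLX array 3-2 (others 10.30 to 10.60). *SERCA* was high at 14.06 in MLX array 3-2 (others 13.93 to 13.95), and *Gpdh1* was low at 12.68 in Control array 3-1 (others 12.98 to 13.13). Of the 11 values set apart, all but that of *CG17177* in CDX array 2-1 came from a population numbered 3. Several of them came from the same array, such as Control array 3-2, so they are not separate events.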

How the results depend on the processing

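The 35 named genes kept their direction under every alternative that gave a value. The naming rule had put all their MLX population means on one side of the rest. Other blocks, moderation or filters and leaving out a population therefore could not turn the direction, whereas normalization and covariates could. Of these values, 821 of 826 stayed on the same side of the adjusted threshold. The exceptions were *CG3603* with arrays taken as independent (adjusted p = 0.0403 from limma), *CG17177* and *Lsp2* without MLX population 3, and *Lsp2* and *gro* without Control population 3. Where a population was left out, it was the one of its treatment nearest to the other side of the comparison. Past the adjusted threshold of 0.05 there was 1 transcript with independent arrays and there were from 0 to 3 when each population was left out. There was 1 without MLX population 1 (an unnamed transcript), 2 without Control population 3 and 3 without MLX population 3, *SpdS*, the spermidine synthase gene, being the third of these. All other settings gave 0.

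The count of transcripts at an unadjusted p under 0.01, 135 in the fit reported, was 237 with independent arrays, 210 with the population number as a replicate block, 20 when both comparisons had to pass in the same direction, 71 in the upper 60% by mean signal and 52 in named genes of high interquartile range, and ran from 103 to 241 when each population was left out. It was highest without MLX population 3. With the excess of 3' over 5' signal in the fit it was 199, and without the 6 arrays highest in yolk and eggshell 130. Same-numbered populations had correlations from -0.14 to 0.38, so the numbers were not taken to pair them, and the replicate block left 0 transcripts past the adjusted threshold and an exact p of 0.444 for the X. The 303 transcripts with MLX population means outside the others became 165 in the upper 60% by mean signal and 509 with male 1 alone, and from 400 to 1317 when each population was left out, fewer populations making this easier. The X difference ran from -0.0090 to 0.00044 when each population was left out. The shift of 3L turned to -6.0e-05 and that of chromosome 4 to 0.00090 with the mean in place of the median.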

Other observations

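The 3 MLX populations varied slightly more among themselves than those of the other treatments: the median SD of 3 population means over all probe sets was 0.085 in MLX, 0.077 in CDX and 0.072 in Control. The median SD between the 2 arrays of a population was 0.11. That is a spread of single arrays, not of means of 2 arrays, so it is not directly comparable. In *SpdS*, named after its values were seen, MLX populations 1 and 2 had means of 5.67 and 5.79, below all others, while MLX population 3, at 6.27, lay within the range of Control and CDX. At the level of genes, 31 of 1873 X-linked genes were higher and 41 lower in MLX at an unadjusted p under 0.05, and 181 of 10015 autosomal genes were higher and 167 lower.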
